A study of Mus musculus with 8 samples.

Results

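The genes described here are 37 genes of the lysosome: subunits of its proton pump, hydrolases, membrane proteins and 2 transcription factors. They were taken by gene symbol from a fixed list, and each matched 1 of the 25572 gene identifiers measured. RNA was sequenced from cells that the labels call neutrophils, sorted by flow cytometry out of PyMT-N tumours in C57/B6 mice. They had been split into an ICAM1-high fraction (cd54+ in the sample titles) and an ICAM1-low fraction (cd54-). There were 4 libraries of each, numbered 1, 2, 3 and 5, and each was made from 150 pg of total RNA. ICAM1, or CD54, is an adhesion molecule that binds leukocyte integrins. PyMT-N is the tumour the series design names, and no genotype, treatment, age or count of animals stands in the labels for either fraction. Whether the libraries of a fraction come from different mice is not stated, so the p-values below rest on the spread among libraries, and part of that spread may be technical.

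Lysosomes are acidic compartments in which enzymes break down proteins, sugars and lipids taken up from outside or from the cell itself. The acid is made by the V-ATPase, a rotary proton pump with a V1 sector in the cytosol that splits ATP and a V0 sector in the membrane that carries protons. Transcription factors of the MiT/TFE family, such as TFEB, switch on many lysosomal genes through a short E-box element in their promoters. Neutrophils keep many of their enzymes in granules, whereas macrophages are known for a large lysosomal compartment.

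Library totals ran from 15940328 to 21825096 estimated counts, and 3 counts, taken as the detection floor, were 0.121 to 0.263 CPM. CPM here is the depth-scaled count that edgeR gives with TMM scaling, and values of 4 libraries are given in the order of replicates 1, 2, 3 and 5. Icam1 itself stood at 48.2, 58.4, 42.4 and 122 CPM in ICAM1-high and at 18.7, 9.25, 4.31 and 138 CPM in ICAM1-low libraries. The library labelled ICAM1-low replicate 5 thus held more Icam1 RNA than any ICAM1-high library, and the results below are also given without it where it matters. The 15 neutrophil markers summed to 7822 to 32051 CPM in ICAM1-low and 1535 to 4677 CPM in ICAM1-high libraries. For 14 of these 15, every ICAM1-high library lay below every ICAM1-low library (3.89% of all genes tested did). Of the 15, 7 were called lower and none higher in ICAM1-high. Ly6g, 1 of the 7, was at 25.9, 38.8, 41.1 and 39.8 CPM in ICAM1-low and 0.095, 3.99, 1.98 and 1.66 CPM in ICAM1-high libraries. None of the 15 was at 0 in any library, but Ly6g in ICAM1-high replicate 1 was below the floor of 0.143 CPM there. The 16 macrophage markers summed to 847 to 1200 CPM in ICAM1-low and 5891 to 16197 CPM in ICAM1-high libraries. Of the 14 macrophage markers tested 9 were higher and none lower in ICAM1-high. The tissue macrophage markers Vsig4 and Timd4, not among the 14, were at 0 in all 4 ICAM1-low libraries. In ICAM1-high libraries Vsig4 was at 2.61, 3.87, 0 and 0.773 CPM. Timd4 was at 0.0475, 4.03, 0 and 0.110 CPM there, above the floor in ICAM1-high replicate 2 only. Summed markers of dendritic cells (41.7 to 237 against 495 to 1174 CPM) and of T and NK cells (2.11 to 60.2 against 91.5 to 382 CPM) were also higher in every ICAM1-high library. Summed markers of monocytes were lower in every one (8401 to 15361 against 3079 to 5350 CPM), but the genes did not share a direction. Fn1 alone had a mean of 11297 of 12904 CPM in ICAM1-low and 2350 of 3979 CPM in ICAM1-high libraries. Of the 8 monocyte markers tested 3 were called higher in ICAM1-high (Ccr2, Cx3cr1 and Ms4a4c) and 1 lower (Ly6c2). Summed markers of B cells overlapped (46.6 to 414 against 274 to 2056 CPM). Fibroblast markers also overlapped, at 1797 to 2780 CPM in ICAM1-low and 459 to 1985.5 CPM in ICAM1-high libraries. Of the 8 fibroblast markers tested 1, Col6a1, was called lower in ICAM1-high and none higher. The name neutrophils comes from the labels. In the ICAM1-high fraction the lower neutrophil and higher macrophage markers do not bear it out, and cell identity was not tested. In such bulk samples fewer cells of a type and less RNA per cell cannot be told apart. The part of these other cells in the lysosomal results was not tested.

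**Figure D1:**
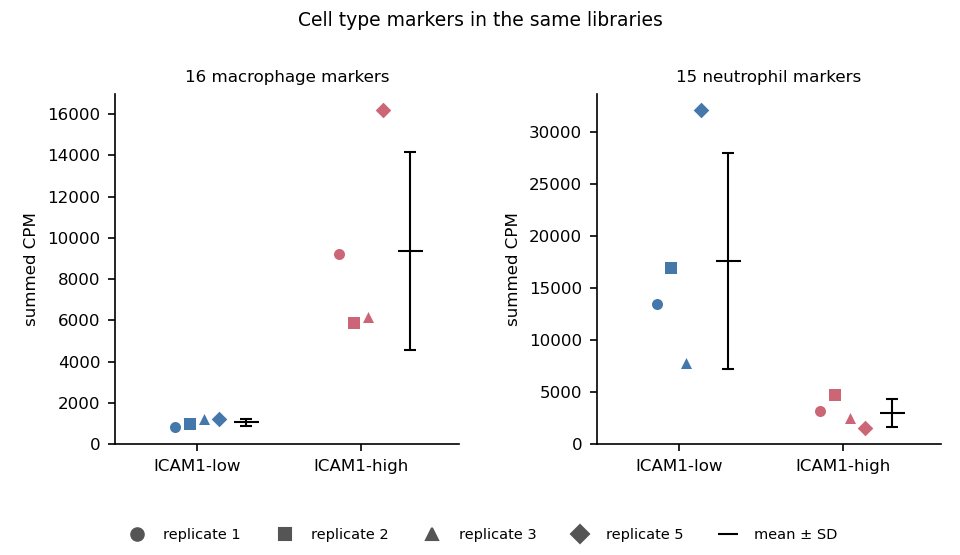
Summed CPM of 16 macrophage and 15 neutrophil markers in each library, with the mean and SD of 4 libraries. The macrophage sums of the ICAM1-high libraries (5891 to 16197 CPM) all lie above those of the ICAM1-low libraries (847 to 1200 CPM), and the neutrophil sums lie below.

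ICAM1-high libraries held more RNA of these genes in sum, chiefly of 3 activator and transfer proteins of the lysosomal lumen (Grn, Psap and Npc2). Their summed mean was 3983 CPM in ICAM1-low and 12682 CPM in ICAM1-high libraries. Glycosidases (914 and 2232 CPM), peptidases (357 and 1273 CPM) and lipid hydrolases (684 and 1174.5 CPM) added less. The summed level of the proton pump also differed less. The 37 genes took 1.02, 1.03, 0.903 and 1.01% of all counts in ICAM1-low and 2.77, 2.19, 2.16 and 2.94% in ICAM1-high libraries. Such a share amounts to scaling by library size alone. Of the 37, all of which passed the filter on low counts, 2 were past the threshold, a Benjamini-Hochberg adjusted p under 0.05 in edgeR's quasi-likelihood test over the whole table. Both were higher in ICAM1-high: Lgmn, which encodes the asparaginyl endopeptidase legumain, and Gusb, which encodes beta-glucuronidase. That is 5.41% of the 37, where 1.22% of the 13575 genes tested were called higher. None of the 37 was called lower, against 0.273% of all genes tested. At an unadjusted p under 0.05, 12 were higher (7.96% of all genes were) and 1 was lower (8.96% of all genes). With DESeq2 8 were called higher and 1 lower, where 5.41% of genes with an adjusted p were higher and 4.76% lower. With limma-voom the numbers were 8 and 0, against 3.54% and 2.77% of all genes. For 12 of the 37 (32.4%) every ICAM1-high library lay above every ICAM1-low library, which held for 7.51% of all genes tested, and for 1, Smpd1, every ICAM1-high library lay below (3.89% of all genes). Among the 37, 26 log2 fold changes were positive and 11 negative, where 47.7% of all genes tested were positive. The median was 0.51, against -0.07 over all genes tested.

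The pump and the rest differed in this. Summed over the 16 V-ATPase genes, the level was 3271, 3450, 3530 and 4900 CPM in ICAM1-low and 5301, 3706, 3544 and 4292 CPM in ICAM1-high libraries. With TMM scaling the fractions overlapped through ICAM1-low replicate 5 alone (with RLE scaling also without it), since the other 3 ICAM1-low sums lay below the lowest ICAM1-high sum. Of all counts the pump took 0.346, 0.34, 0.337 and 0.35% in ICAM1-low and 0.52, 0.421, 0.413 and 0.452% in ICAM1-high, without overlap. This share amounts to scaling by library size alone, and the fractions overlapped with TMM, RLE and upper-quartile scaling. The difference of the mean log2 sums was small but depended on the scaling. It was 0.087 with RLE, 0.15 with TMM, 0.28 with upper-quartile scaling and 0.39 with library sizes only. With TMM and without ICAM1-low replicate 5 it was 0.28. Over the other 21 genes the sum was 6326, 7047, 5937 and 9285 CPM in ICAM1-low and 22997, 15505, 15013 and 23574 CPM in ICAM1-high libraries, with no overlap. The ratio of the second sum to the first had a mean of 1.89 ± 0.151 in the ICAM1-low fraction and 4.56 ± 0.623 in the ICAM1-high fraction (SD, n = 4 each). Grn and Psap made up 29.9 to 38.3% of the level of the 37 genes in ICAM1-low and 46.6 to 54.8% in ICAM1-high libraries. With both left out the ratio was 0.893 ± 0.0701 in the ICAM1-low fraction and 1.82 ± 0.0945 in the ICAM1-high fraction, again without overlap. These ratios are within a library and so are free of the scaling between libraries. They are descriptions with no test, since the genes were chosen with earlier results known. For 10 of the 21 genes (47.6%) every ICAM1-high library was above every ICAM1-low library. This held for 2 of the 16 V-ATPase genes (12.5%), a share near the 7.51% of all genes tested.

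**Figure D2:**
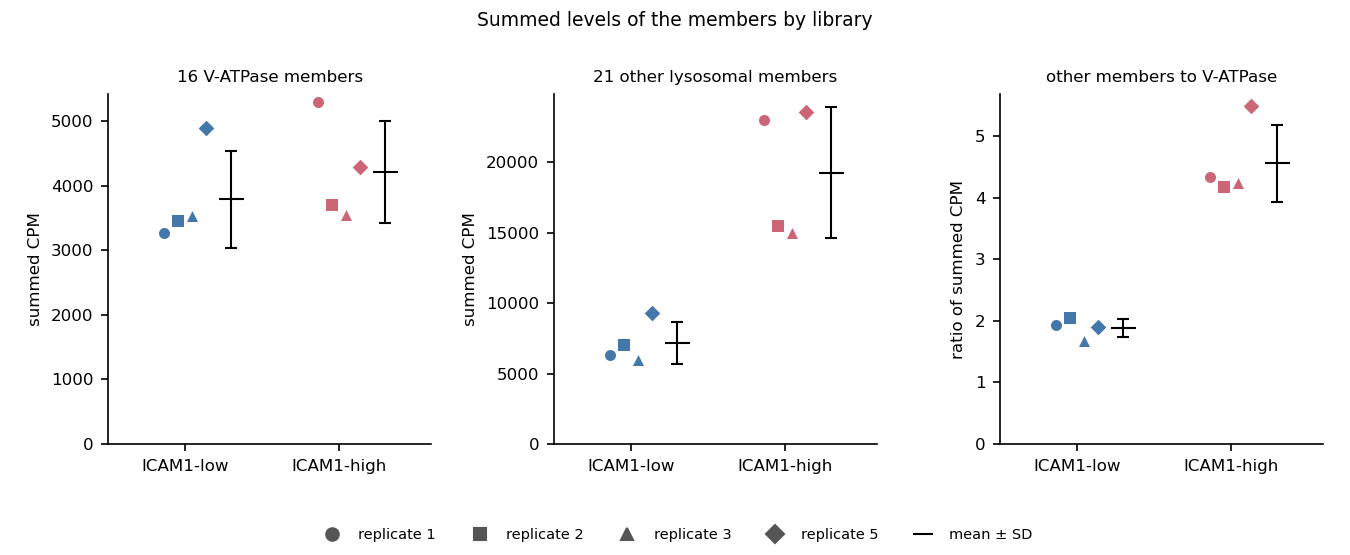
Summed CPM of 16 V-ATPase genes and of 21 other lysosomal genes, and the ratio of the second sum to the first, in each library with the mean and SD of 4 libraries. The V-ATPase sums overlap only through ICAM1-low replicate 5 (4900 CPM), and the ratio is 1.68 to 2.04 in ICAM1-low and 4.18 to 5.49 in ICAM1-high libraries.

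**Figure D3:**
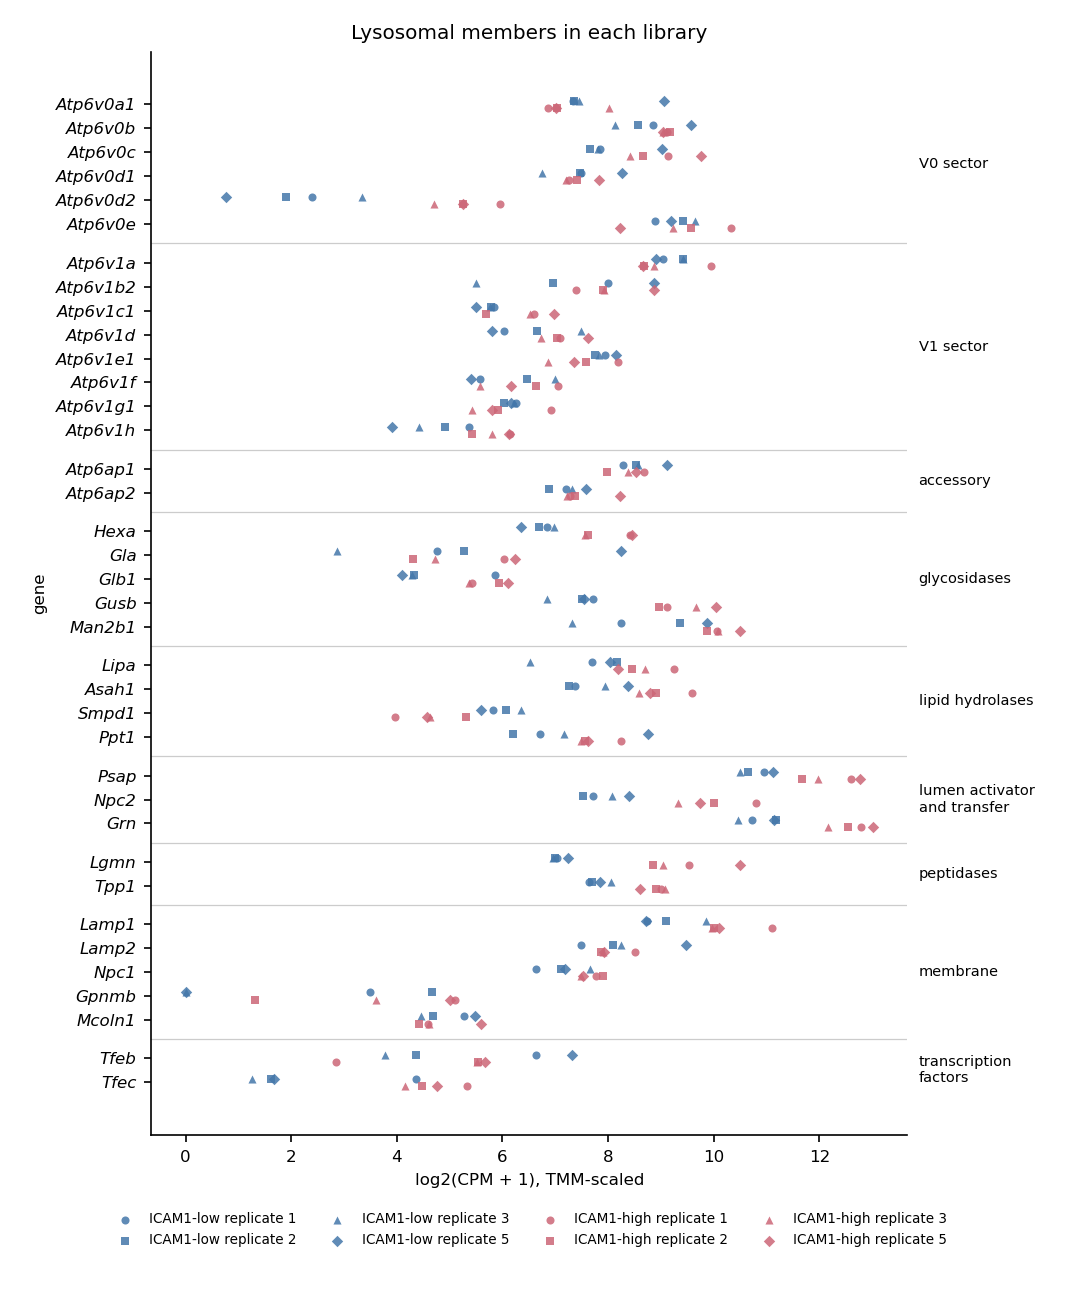
Level of each of the 37 genes in each of the 8 libraries, as log2(CPM + 1), grouped by role. Points of the fractions separate for Lgmn, Gusb, Npc2, Grn and Psap, and mix for most V-ATPase subunits.

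In the membrane-bound V0 sector none of 6 subunits passed the test, and the median log2 fold change was 0.22. Atp6v0d2, a subunit isoform known from osteoclasts and macrophages, stood at 4.25, 2.73, 9.16 and 0.702 CPM in ICAM1-low libraries. In ICAM1-high libraries it stood at 61.1, 37.3, 25.1 and 36.9 CPM. The fractions did not overlap, and its log2 fold change of 3.25 ± 0.78 (SE) was the largest of the 37 but missed the threshold (edgeR adjusted p = 0.0644). It was past it under 7 of the 17 alternative settings, with adjusted p from 0.000799 to 0.181 over all of them. The broadly expressed isoform Atp6v0d1 stood at 178, 175, 106 and 307 CPM in ICAM1-low and 153, 170, 147 and 226 CPM in ICAM1-high libraries. Its log2 fold change was -0.14 ± 0.43 and turned positive with library sizes only (0.14). Per length, Atp6v0d2 made up 1.38, 0.905, 4.83 and 0.134% of the pair in ICAM1-low and 19.0, 11.4, 9.11 and 8.74% in ICAM1-high libraries, so Atp6v0d1 remained the more abundant isoform in all 8.

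The proteolipid Atp6v0c, which forms the proton-carrying ring, was at 229, 202, 224 and 518 CPM in ICAM1-low and 561, 405, 343 and 865 CPM in ICAM1-high libraries. Replicate 5 was the highest library of both fractions, and the log2 fold change of 0.89 ± 0.49 missed the threshold (edgeR adjusted p = 0.382). Atp6v0b, another ring subunit, and Atp6v0e, a small membrane subunit, had log2 fold changes of 0.22 ± 0.43 and 0.21 ± 0.50. The stator subunit Atp6v0a1 was at 161, 162, 173 and 535 CPM in ICAM1-low and 115, 129, 259 and 128 CPM in ICAM1-high libraries. Its log2 fold change of -0.71 ± 0.52 shrank to -0.060 without ICAM1-low replicate 5. Tcirg1, the a3 isoform of the same stator subunit and a gene outside the 37, was at 80.1, 42.8, 64.2 and 75.9 CPM in ICAM1-low and 124, 178, 294 and 352 CPM in ICAM1-high libraries (log2 fold change 1.85 ± 0.46; edgeR adjusted p = 0.0729). Per length, Tcirg1 made up 36.6 to 67.0% of this pair in ICAM1-low and 81.4 to 91.8% in ICAM1-high libraries. These shares rest on the deposited lengths, 689 bases for Tcirg1 and 2807 for Atp6v0a1. In CPM, without the lengths, Tcirg1 was below Atp6v0a1 in every ICAM1-low library and above it in every ICAM1-high library.

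**Figure D4:**
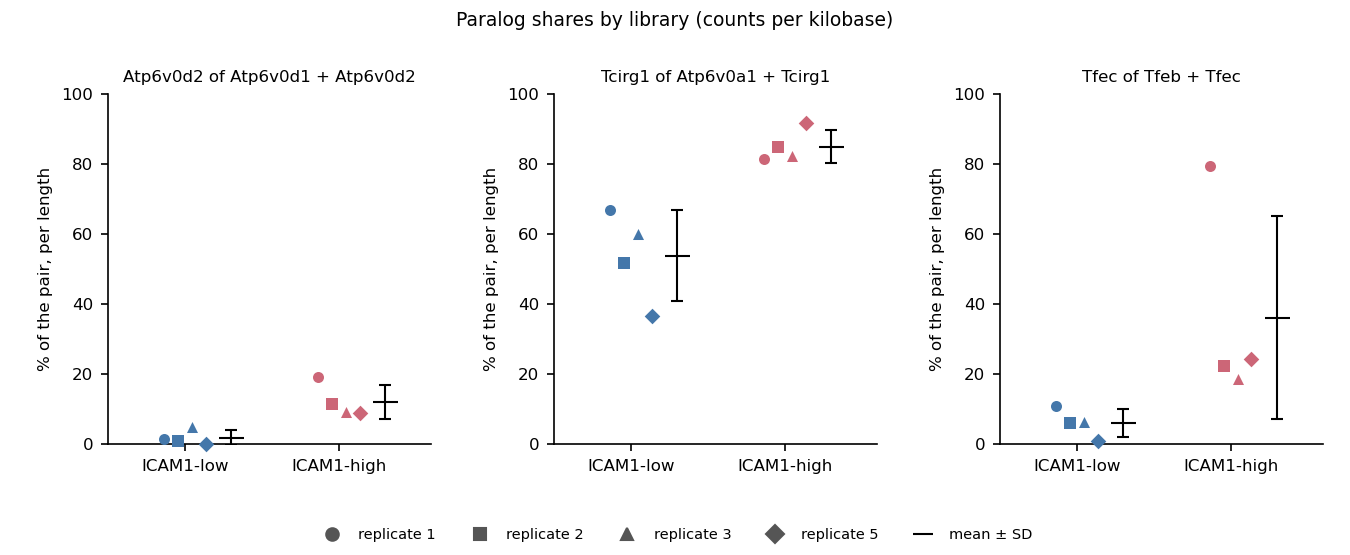
Share of the second gene in 3 pairs of related genes, from counts per kilobase, in each library with the mean and SD of 4 libraries. The Atp6v0d2 share is 0.134 to 4.83% in ICAM1-low and 8.74 to 19.0% in ICAM1-high libraries, and the Tcirg1 and Tfec shares do not overlap between the fractions either.

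Of the 8 subunits of the V1 sector, none passed the test, 5 had positive and 3 negative log2 fold changes, and the median was 0.27. The regulatory subunit Atp6v1h, at 40.5, 29.1, 20.4 and 14.03 CPM in ICAM1-low and 69.9, 42.1, 54.5 and 68.4 CPM in ICAM1-high libraries, was the V1 subunit whose fractions did not overlap. In log2 terms this was 1.18 ± 0.48 (edgeR adjusted p = 0.244). The catalytic subunit Atp6v1a, which binds ATP, was at 527, 688, 681 and 477 CPM in ICAM1-low and 990, 407, 469 and 402 CPM in ICAM1-high libraries. The fractions overlapped and the log2 fold change of -0.065 ± 0.45 turned positive with upper-quartile scaling (0.047) and with library sizes only (0.11). Its partner in the ATP-splitting ring, Atp6v1b2, ranged from 44.3 to 467 CPM in ICAM1-low and from 167 to 469 CPM in ICAM1-high libraries. Atp6v1c1, Atp6v1d, Atp6v1e1 and Atp6v1f, which belong to the stalks of the pump, had log2 fold changes of 0.81 ± 0.41, 0.51 ± 0.47, -0.34 ± 0.41 and 0.20 ± 0.50. Atp6v1g1, also a stalk subunit, had a value of -0.044 ± 0.44 that turned positive with upper-quartile scaling (0.064) and library sizes only (0.14). The accessory proteins Atp6ap1 and Atp6ap2, which help the pump to assemble, had log2 fold changes of -0.25 ± 0.40 (0.010 with library sizes only) and 0.31 ± 0.40.

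Among the 5 glycosidases, enzymes that trim sugars from glycolipids and glycoproteins, 1 was higher, none was lower and the median log2 fold change was 1.14. Gusb, which removes glucuronic acid from glycosaminoglycans, was at 210, 182, 114 and 185 CPM in ICAM1-low and 556, 501, 814 and 1056 CPM in ICAM1-high libraries. Every ICAM1-high library was above every ICAM1-low library, and the log2 fold change was 2.08 ± 0.44 (SE, n = 4 against 4; edgeR adjusted p = 0.0451), a 4.24-fold difference. The call was lost with RLE scaling (adjusted p = 0.0543) and without any single library except ICAM1-low replicate 5 (adjusted p from 0.0848 to 0.118 in those 7 fits). The other glycosidases did not pass. Hexa, the alpha subunit of beta-hexosaminidase, was at 114, 102, 125 and 80.4 CPM in ICAM1-low and 339, 196, 189 and 349 CPM in ICAM1-high. Its log2 fold change was 1.35 ± 0.41 (edgeR adjusted p = 0.134). It was past the threshold with DESeq2 (adjusted p = 0.0267) and under no other setting tried. Man2b1, the lysosomal alpha-mannosidase, ranged from 158 to 943 CPM and from 941 to 1443 CPM, in that order of fractions, and these overlapped only through ICAM1-low replicate 5. Glb1, the lysosomal beta-galactosidase, had a log2 fold change of 0.93 ± 0.54. Gla, the alpha-galactosidase, was at 26.3, 37.6, 6.28 and 302 CPM in ICAM1-low and 64.4, 18.8, 25.3 and 74.3 CPM in ICAM1-high libraries, and its log2 fold change of -1.02 ± 0.97 became 0.95 without ICAM1-low replicate 5.

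**Figure D5:**
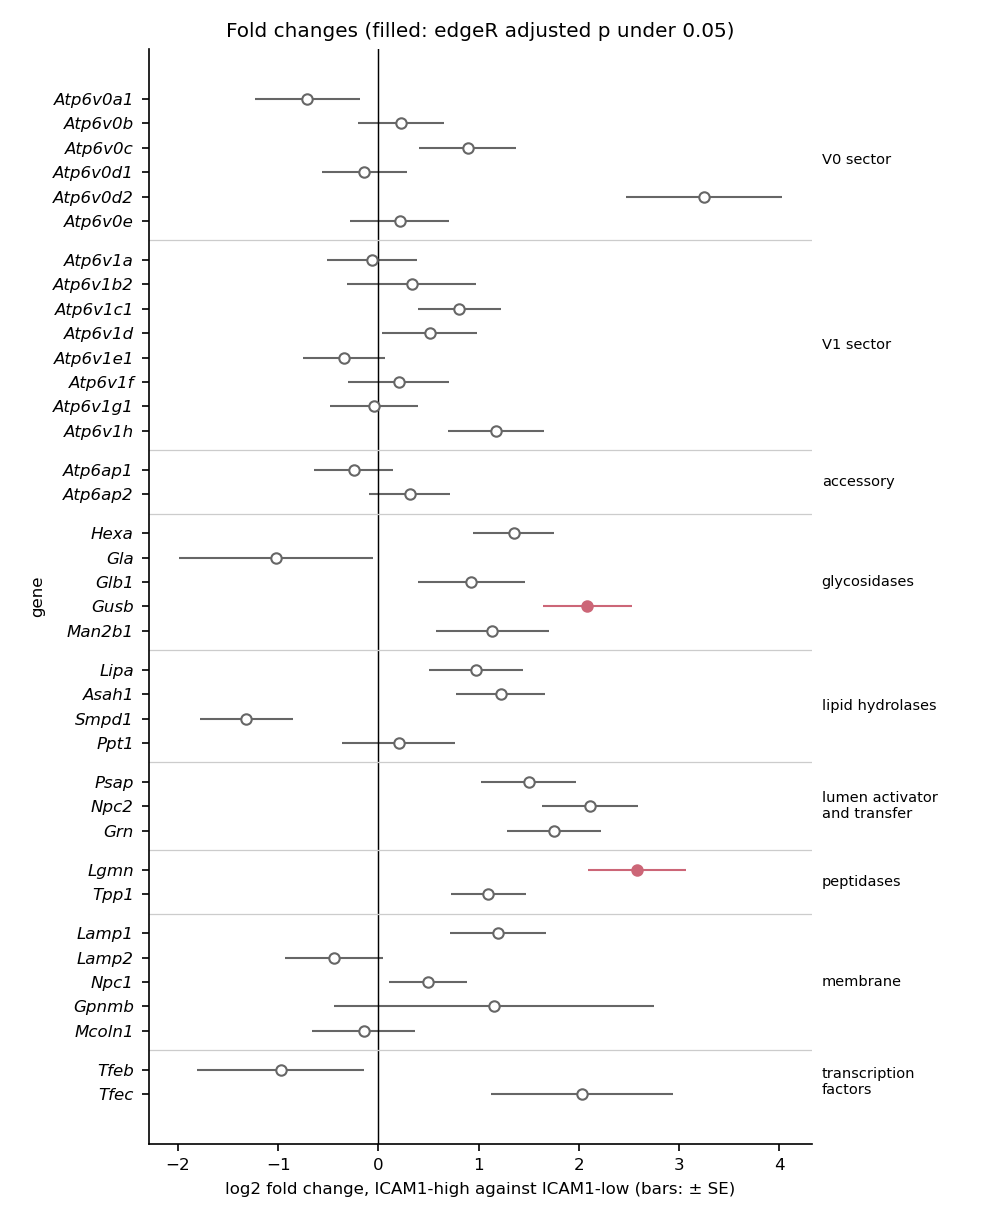
Log2 fold change of each of the 37 genes, ICAM1-high against ICAM1-low, with its standard error, grouped by role. Filled points are past the threshold: Gusb (2.08) and Lgmn (2.58).

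None of the 4 lipid hydrolases passed the edgeR test, and they did not share a direction. Asah1, the acid ceramidase, was at 165, 152, 244 and 331 CPM in ICAM1-low and 769, 482, 386 and 440 CPM in ICAM1-high libraries. Its log2 fold change was 1.22 ± 0.44 (edgeR adjusted p = 0.198). It was past the threshold with limma-voom (adjusted p = 0.0327) and under no other setting tried. Lipa, the acid lipase that frees cholesterol from its esters, ranged from 91.2 to 285 CPM in ICAM1-low and from 291 to 606 CPM in ICAM1-high libraries (log2 fold change 0.97 ± 0.47; edgeR adjusted p = 0.319). Smpd1, the acid sphingomyelinase that makes ceramide, went the other way. It stood at 55.4, 66.2, 80.4 and 47.5 CPM in ICAM1-low and 14.6, 38.8, 23.8 and 22.8 CPM in ICAM1-high libraries, without overlap. Its log2 fold change of -1.32 ± 0.47 missed the threshold (edgeR adjusted p = 0.189). It was past the threshold with DESeq2 (adjusted p = 0.033) and under no other setting tried. Ppt1, which removes palmitate from proteins, had a log2 fold change of 0.20 ± 0.56, and 1.03 without ICAM1-low replicate 5, where it was at 433 CPM against 72.5 to 142 CPM in the other ICAM1-low libraries.

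The 3 activator and transfer proteins of the lysosomal lumen were higher in every ICAM1-high than in every ICAM1-low library. Yet none was past the threshold in the main edgeR fit. All 3 were past it with DESeq2 and with limma-voom. Npc2, which hands cholesterol to the membrane protein NPC1, was at 209, 184, 270 and 337 CPM in ICAM1-low and 1788, 1022, 640 and 858 CPM in ICAM1-high libraries. The log2 fold change was 2.11 ± 0.48 (edgeR adjusted p = 0.0541), and it was past the threshold without ICAM1-low replicate 5 (adjusted p = 0.0272). On all 8 libraries, edgeR also called Npc2 with upper-quartile scaling, library sizes only, no filter or at least 10 CPM in 4 libraries. Grn, which encodes progranulin, the precursor of lysosomal granulins, was at 1692, 2333, 1399 and 2256 CPM in ICAM1-low and 7115, 5934, 4608 and 8264 CPM in ICAM1-high libraries. The difference of 1.75 ± 0.47 on the log2 scale missed the threshold in the main fit (edgeR adjusted p = 0.0897). Grn was past it with library sizes only, and without ICAM1-low replicate 5 (edgeR adjusted p = 0.0399). Psap, the precursor of the saposins that present glycolipids to their hydrolases, was at 1987, 1597, 1435 and 2233 CPM in ICAM1-low and 6213, 3251, 4032 and 7005 CPM in ICAM1-high libraries (log2 fold change 1.499 ± 0.47; edgeR adjusted p = 0.145). Its adjusted p was 0.0171 with DESeq2 and 0.0423 with limma-voom. Per length, Grn was the most abundant of the 37 genes in both fractions, at 2824 ± 667 TPM in ICAM1-low and 10005 ± 1258 TPM in ICAM1-high libraries (length-scaled counts, SD, n = 4).

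The peptidase gene Lgmn had the smallest p of the 37. It stood at 129, 127, 123 and 151 CPM in ICAM1-low and 739, 461, 524 and 1445 CPM in ICAM1-high libraries. The ICAM1-low libraries were close together, the ICAM1-high libraries were all above them, and replicate 5 was the highest in both fractions. The log2 fold change was 2.58 ± 0.49 (SE, n = 4 against 4; edgeR adjusted p = 0.0296), a 5.98-fold difference. It was past the threshold in every fit on all 8 libraries, under each scaling, filter and tool tried, but not without any single library other than ICAM1-low replicate 5 (adjusted p from 0.0549 to 0.0935 in those 7 fits). Tpp1, a tripeptidyl peptidase, was at 198, 207, 264 and 230 CPM in ICAM1-low and 512, 477, 542 and 390 CPM in ICAM1-high libraries. The fractions did not overlap, and the log2 fold change of 1.10 ± 0.37 missed the threshold (edgeR adjusted p = 0.174). Tpp1 was past it with DESeq2 (adjusted p = 0.0259) and limma-voom (0.0408).

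None of the 5 membrane proteins passed the test, with adjusted p from 0.24 to 0.914 in edgeR. Lamp1, a heavily glycosylated protein of the lysosomal membrane, was at 428, 546, 928 and 421 CPM in ICAM1-low and 2191, 1025, 998 and 1094 CPM in ICAM1-high libraries (log2 fold change 1.19 ± 0.48; edgeR adjusted p = 0.24). Lamp2, its close relative, was at 179, 273, 304 and 711 CPM in ICAM1-low and 363, 233, 240 and 242 CPM in ICAM1-high libraries. Its log2 fold change of -0.44 ± 0.49 became 0.10 without ICAM1-low replicate 5, and the difference between these 2 genes was not tested. Npc1, the membrane partner of NPC2 in cholesterol export, had a log2 fold change of 0.50 ± 0.39, and the calcium channel gene Mcoln1 of -0.15 ± 0.51 (0.10 with library sizes only). Gpnmb, a glycoprotein of lipid-laden macrophages, was low and erratic, at 10.3, 24.4, 0 and 0 CPM in ICAM1-low and 33.3, 1.49, 11.1 and 31.3 CPM in ICAM1-high libraries.

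The 2 transcription factors did not pass. Tfec, a MiT/TFE factor known from myeloid cells, was at 19.6, 2.08, 1.38 and 2.19 CPM in ICAM1-low and 39.3, 21.4, 16.8 and 26.1 CPM in ICAM1-high libraries. ICAM1-low replicate 1 was the library that overlapped, and the log2 fold change was 2.03 ± 0.91 (edgeR adjusted p = 0.287), and 3.78 (adjusted p = 0.0718) without that library. Tfeb was at 97.8, 19.6, 12.7 and 158 CPM in ICAM1-low and 6.18, 45.4, 44.8 and 49.8 CPM in ICAM1-high libraries, widely spread in ICAM1-low (log2 fold change -0.98 ± 0.83; edgeR adjusted p = 0.588). Per length, Tfec made up 0.842 to 10.9% of the pair in ICAM1-low and 18.6 to 79.5% in ICAM1-high libraries. The upper value is ICAM1-high replicate 1 alone, where Tfeb was lowest, and the other 3 stood at 18.6 to 24.2%.

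The promoters of the genes were searched for CACGTG, the core of the E-box that MiT/TFE factors bind, which reads the same on both strands. RefSeq windows (GRCm38.p6, from 250 bases before to 50 after a start) were at hand for 30 of the 37 genes, and 9 of these (30.0%) held the motif in at least 1 window, against 8.09% of all genes with a window. The 9 were 4 of 11 V-ATPase genes and 5 of 19 others. Their median log2 fold change was 0.21, and that of the 21 genes without a match 0.89, with 1 gene past the threshold in each set. The windows below are shown for the 2 genes past the threshold and for Lamp1, which held the most matches. They are the 250 bases before the start, 5′ to 3′ on the gene's strand, with each CACGTG in capitals. Lgmn has 2 windows, of which the one at chr12:102439093-102439342 (minus strand) holds 1 match, beginning 49 bases before the start. The Gusb window, chr5:130003050-130003299 (minus strand), holds none. The Lamp1 window, chr8:13158911-13159160 (plus strand), holds 4, beginning 61, 45, 28 and 15 bases before the start. A match is a run of letters and not a measured binding site.
Lgmn: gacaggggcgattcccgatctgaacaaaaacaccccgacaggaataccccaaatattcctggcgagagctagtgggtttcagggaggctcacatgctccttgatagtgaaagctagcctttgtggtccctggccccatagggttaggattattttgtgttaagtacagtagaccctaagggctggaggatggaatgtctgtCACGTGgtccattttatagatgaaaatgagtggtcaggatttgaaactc
Gusb: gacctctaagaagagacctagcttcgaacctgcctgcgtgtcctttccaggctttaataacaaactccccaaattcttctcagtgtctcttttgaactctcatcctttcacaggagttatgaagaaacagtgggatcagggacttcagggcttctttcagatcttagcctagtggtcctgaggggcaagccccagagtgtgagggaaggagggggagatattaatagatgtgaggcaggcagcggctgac
Lamp1: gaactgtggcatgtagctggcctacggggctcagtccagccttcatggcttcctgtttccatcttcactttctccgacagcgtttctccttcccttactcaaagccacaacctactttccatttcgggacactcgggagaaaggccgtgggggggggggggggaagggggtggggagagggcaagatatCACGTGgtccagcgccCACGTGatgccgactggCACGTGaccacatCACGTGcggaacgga

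Other lysosomal genes, from a list of 64 of which 57 could be tested, were examined beside them. Of these 57, 4 were higher (7.02%) and none lower in ICAM1-high libraries, and the median log2 fold change was 0.42. At an unadjusted p under 0.05, 11 were higher and 2 lower, against 7.96% and 8.96% of all genes. With DESeq2 8 were called higher and 0 lower (5.41% and 4.76% of all genes), and with limma-voom 9 and 1 (3.54% and 2.77%). Acp5, the tartrate-resistant acid phosphatase known from osteoclasts and macrophages, rose by 3.17 ± 0.59 on the log2 scale (edgeR adjusted p = 0.0295). The lysosomal acid phosphatase Acp2 rose by 2.04 ± 0.42, and Cd68, a lysosomal membrane protein that is also among the macrophage markers here, by 2.73 ± 0.56 (both edgeR adjusted p = 0.0409). The 2 with an unadjusted p under 0.05 in the other direction were sorting receptors that carry enzymes to lysosomes, and they and M6pr are named after their values were seen. Igf2r was at 207, 186, 173 and 81.7 CPM in ICAM1-low and 25.6, 55.6, 98.6 and 19.6 CPM in ICAM1-high libraries (log2 fold change -1.70 ± 0.57; edgeR adjusted p = 0.171), and Sort1 differed by -1.63 ± 0.70 (edgeR adjusted p = 0.267). M6pr, the second receptor for mannose 6-phosphate, had a value of 0.97 ± 0.41 (edgeR adjusted p = 0.263).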

How the data were processed

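RNA was sequenced from 4 ICAM1-high and 4 ICAM1-low libraries, each from 150 pg of RNA prepared with a QIAseq FX single-cell kit, per the labels' protocols. Trim Galore 0.6.6, Salmon 1.9.0 and the build GRCm39 (mm39) are named in the submitters' processing notes, and the annotation used is not stated. The authors deposited estimated counts per gene and a gene length. The table has 25669 rows; 88 gene identifiers stood in more than 1 row with identical values and were kept once, leaving 25572. Estimated counts were rounded to whole numbers. Without molecular identifiers they need not equal molecules, and the floor of 3 counts covers counting error only.

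ICAM1-high was compared with ICAM1-low by edgeR 4.0.16 in R 4.3.3 (filterByExpr, TMM scaling, quasi-likelihood test, group as the only term, all 8 libraries) over 13575 genes, with a threshold of 0.05 on the Benjamini-Hochberg adjusted p. Standard errors are the absolute log2 fold change over the square root of F. Levels per length are estimated counts divided by the deposited length, scaled to the same total in each library (TPM). The biological coefficient of variation was 0.858. Steps were tested on simulated data. All 37 genes are named, and of the other lysosomal genes those past the threshold and the next by p up to 6, except 2 that are not reported here. Genes and lists were chosen with earlier results of these data known. Alternatives were other scalings, DESeq2 1.42.0, limma-voom (limma 3.58.1), other filters, a replicate block and libraries left out.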

Additional observations from a re-analysis of the deposited data

Results flagged for a closer look

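In 74 groups of 4 libraries (37 genes in 2 fractions), 13 held 1 library whose gap to the nearest other exceeded Dixon's 95% critical share of the range, where chance flags about 1 in 20. In ICAM1-low replicate 5, Atp6v0a1 was at 535 CPM (161 to 173 in the other 3), Atp6v0c at 518 CPM (202 to 229) and Gla at 302 CPM (6.28 to 37.6). In ICAM1-low replicate 1, Glb1 was at 56.7 CPM (16.2 to 18.9) and Tfec at 19.6 CPM (1.38 to 2.19). ICAM1-high replicate 1 was far from its group for 5 genes: Atp6v1a at 990 CPM (402 to 469), Ppt1 at 302 CPM (178 to 195), Lamp1 at 2190 CPM (998 to 1090), Lamp2 at 363 CPM (233 to 242) and, on the low side, Tfeb at 6.18 CPM (44.8 to 49.8). In ICAM1-high replicate 3, Atp6v0a1 was at 259 CPM (115 to 129). In ICAM1-high replicate 5, Atp6ap2 was at 297 CPM (149 to 164) and Mcoln1 at 47.5 CPM (20.5 to 23.3).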

How the results depend on the processing

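Calls were few and moved with the settings, whereas the summed levels kept their direction; the pump's fractions overlapped with TMM, RLE and upper-quartile scaling but not with library sizes only. Over all genes tested 166 were higher and 37 lower; the numbers were 258 higher with library sizes only, 847 and 745 with DESeq2, 480 and 376 with limma-voom, 120 lower with no filter, 61 lower with a filter of 10 CPM in 4 libraries, and 190 lower without both libraries numbered 5. Leaving out 1 library gave 4 to 337 higher and 0 to 241 lower. Of the 37 genes, 2 were higher; this was 1 with RLE scaling (Lgmn), 4 with library sizes only, with no filter, with the stricter filter and without both libraries numbered 5, and 8 with DESeq2 and with limma-voom. It was 0 to 5 when 1 library was left out, and DESeq2 called 1 lower. The other lysosomal genes had 4 higher, 2 with RLE scaling, 8 with DESeq2, 9 with limma-voom and 0 to 8 with 1 library left out, and limma-voom called 1 lower. The all-gene median was -0.07 with TMM, 0.06 with upper-quartile scaling and 0.17 with library sizes only, on the log2 scale.

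Signs turned only in genes that were not called. With library sizes only, Atp6v0d1 (0.14), Atp6v1a (0.11), Atp6v1g1 (0.14), Atp6ap1 (0.010) and Mcoln1 (0.10) turned positive, and with upper-quartile scaling Atp6v1a (0.047) and Atp6v1g1 (0.064). Without both libraries numbered 5, Atp6v0a1 (0.041), Atp6v0d1 (0.047), Atp6v1g1 (0.055), Gla (0.63) and Lamp2 (0.16) turned positive, and Gla did with limma-voom (0.12). With 1 library left out, log2 fold changes spanned 0 for Atp6v0d1 (-0.34 to 0.18), Atp6v0e (-0.20 to 0.50), Atp6v1a (-0.49 to 0.091), Atp6v1b2 (-0.0088 to 0.98), Atp6v1f (-0.084 to 0.57), Atp6v1g1 (-0.46 to 0.14), Gla (-1.41 to 0.95), Ppt1 (-0.061 to 1.03), Lamp2 (-0.67 to 0.10) and Mcoln1 (-0.48 to 0.037). The causes were not tested, and leaving out libraries also leaves fewer to test.

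The titles give both fractions the same numbers but do not say what a number marks. Deviations of same-numbered libraries correlated at -0.177, 0.111, 0.167 and 0.371 for replicates 1, 2, 3 and 5. Differently numbered libraries correlated at -0.366 to 0.167. Each deviation is from a mean of only 4 libraries, so these values cannot decide the pairing. The pairing is not established, nor is it excluded. With a replicate block, 280 genes were higher and 261 lower, 3 of the 37 were higher (Atp6v0d2 was added, adjusted p = 0.0399) and Gla turned to 0.076. Not every library correlated best with its own number.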
